A study of Gossypium arboreum with 12 samples.

Results

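Ovules of a fuzzy-lintless (*Fl*) line of the diploid cotton *Gossypium arboreum* were compared with ovules of its fuzzy-linted (*FL*) wild type on the day of anthesis (0 dpa, days post anthesis). The arrays were chosen by their titles, and 6 of the 12 arrays of the series belong to the comparison, 3 of the *Fl* mutant ANOI 1960 at 0 dpa and 3 of fibre-bearing wild type at 0 dpa. The other 6 arrays hold the same lines at 10 dpa, when fibres elongate. Among them, replicate 1 of *FL* carries 0 dpa in its developmental stage field and was placed at 10 dpa by its title. Both lines were grown in the field without any treatment, the bolls were frozen at harvest, and the labels call the arrays of each group biological replicates. The lines are near-isogenic but come from a single backcross generation, so the lintless trait and the rest of the genetic background cannot be told apart. Whole ovules were measured, in which fewer cells of a type and less RNA per cell cannot be told apart.

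Each cotton fibre is a single epidermal cell of the ovule that swells out of the surface around anthesis and later elongates. Long fibres are the lint that is spun, and short ones that stay on the seed are the fuzz. In cotton, MYB and homeodomain transcription factors act in choosing the cells that become fibres, and ethylene, auxin, gibberellin and brassinosteroid act on their outgrowth. Enzymes that loosen or build the cell wall then allow the cell to expand.

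The array carries probe sets, groups of short probes against a transcript, and 21791 of them were tested. Each value is a log2 level with the probe set's own median over the 12 arrays as zero, so levels of different probe sets cannot be compared and neither presence nor the labelled tissue could be checked from markers. A difference is the *Fl* mean minus the *FL* mean in log2 units, from a limma fit of all 12 arrays, with a Benjamini-Hochberg adjusted p over all 21791 probe sets. A transcript is called at an adjusted p of 0.01 or less, and is a differentially expressed transcript (DET) where the difference is also 3-fold or more. Gene names are the closest *Arabidopsis* homologs in the study's lists, which cover 270 probe sets, and roles are those known in *Arabidopsis*. Of those 270, 58 were listed because they differed on these same 0 dpa arrays, so their direction here is not independent evidence. The other 212 were listed from the 10 dpa arrays alone.

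Some technical measures also differed between the lines at 0 dpa. The bacterial hybridization controls averaged -0.24 ± 0.029 on the *Fl* arrays and 0.41 ± 0.12 on the *FL* arrays (SD, n = 3 each), and the poly-A spike controls -0.30 ± 0.079 and 0.11 ± 0.043. The 3′ minus 5′ difference of the actin probe sets, a measure that moves with RNA integrity and labelling, was -0.74 ± 0.044 in *Fl* and -0.09 ± 0.11 in *FL*. Each of these differences had an exact two-sided permutation p of 0.10, the smallest that 3 arrays against 3 can give. The 36 reporter probe sets differed by 0.01 (exact permutation p = 1.00). The part of these measures in the results below was not tested.

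Most of the differences between *Fl* and *FL* ovules were small, and those of 3-fold or more were mostly higher in *Fl*. Of all 21791 probe sets, 1078 were called higher in *Fl* (4.95%) and 1144 were called lower (5.25%), 2222 or 10.2% in either direction. The shares of 4.95% and 5.25% are the background for all counts of gene list members below. Of these calls 96.3% were under 3-fold and 90.2% under 2-fold. The median called difference was 1.42-fold among the higher transcripts and 1.37-fold among the lower ones. At 3-fold or more 69 were higher (0.317% of probe sets) and 14 lower (0.0642%). Under 3-fold, 1009 transcripts were higher and 1130 lower, an excess of lower calls that was not stable, since the 0 dpa arrays alone gave 614 higher and 570 lower and quantile normalization 1197 and 1153.

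**Figure D1:**
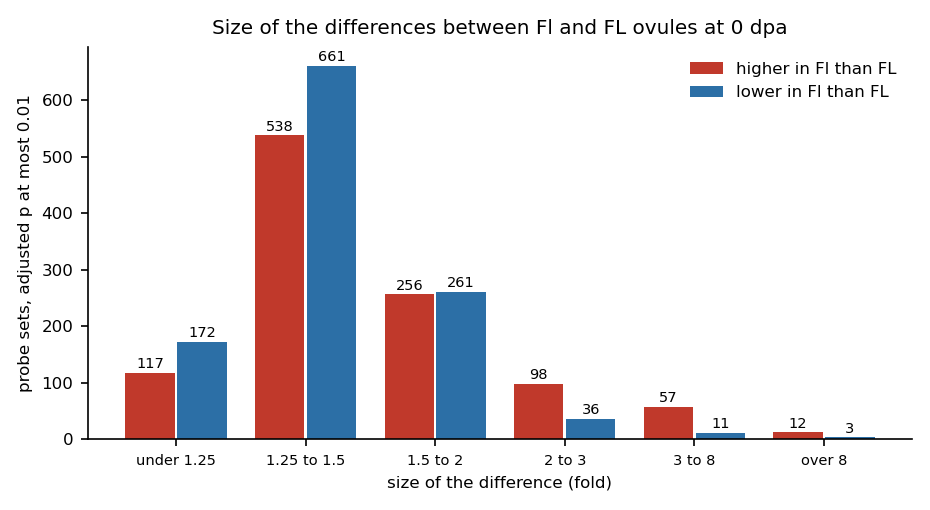
Number of probe sets with an adjusted p of at most 0.01 at 0 dpa (vertical axis) by the size of the difference in fold (horizontal axis), with those higher in *Fl* in red and those lower in *Fl* in blue. Lower calls outnumber higher ones up to 1.5-fold (172 against 117 and 661 against 538 in the first 2 bins), and higher calls outnumber lower ones from 2-fold on (98 against 36, 57 against 11 and 12 against 3).

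From 1.25 to 1.5-fold, 538 transcripts were called higher and 661 lower, while 1337 differences of that size were not called. Between 2 and 3-fold, 98 were higher, 36 lower and 3 not called. All differences of 3-fold or more passed the test. Over all probe sets the median difference was -0.0161, with 1% below -0.671 and 1% above 0.876, and the extremes were -7.25 and 4.11. The 3 arrays of *Fl* did not overlap those of *FL* in any of the 2222 called transcripts, a property shared by 7767 of all 21791 probe sets. The counts at any fold depended on single arrays and on the estimate of spread. Without *Fl* replicate 1 they were 631 higher and 578 lower, without *Fl* replicate 2 they were 700 and 637, without *Fl* replicate 3 765 and 716, and without *FL* replicate 2 721 and 693. With the 6 arrays of 0 dpa alone they were 683 and 584. Centring each array on the hybridization controls, which moved the median difference to 0.637, called 19278 higher and 45 lower, so that decreases smaller than this shift turned into increases. Higher calls were then 99.8% of the total at any fold, against 48.5% without that centring, and 98% at 3-fold (192 higher, 4 lower), against 83.1%. A core of 521 higher and 427 lower calls, of which 738 were under 2-fold, was kept in the fit of the 0 dpa arrays alone and without each of the 6 arrays in turn, and under 3-fold it held 454 higher and 413 lower.

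Transcription factor transcripts of the AP2/ERF family, which bind DNA downstream of ethylene and stress signals, included some of the largest increases in *Fl* ovules. Of 13 probe sets, 8 were higher and none was lower, but 7 of these 8 belong to transcripts listed because they differed on the same arrays. The 6 probe sets listed from the 10 dpa arrays alone had a median difference of 0.116, beside -0.0161 over all probe sets, and 1 was called. A transcript like AT1G19210 had levels of 4.21, 3.96 and 3.97 on the *Fl* arrays and -0.03, -0.21 and 0.04 on the *FL* arrays, a difference of 4.11 (SE 0.13, adjusted p = 2.1e-09) or 17.3-fold. The *FL* arrays thus lay at the median of the probe set and the *Fl* arrays far above it, without overlap. The related AT5G51190 read 3.02, 2.99 and 3.05 in *Fl* and 0.02, -0.02 and -0.12 in *FL* (difference 3.06, SE 0.08, adjusted p = 3.6e-10). ERF5 (AT5G47230), an activator of defence genes, read 2.21, 2.15 and 2.17 in *Fl* and -0.02, -0.01 and -0.09 in *FL*. ERF4 (AT3G15210), a repressor with an EAR motif, moved the same way by 1.90 (SE 0.08, adjusted p = 3.8e-08). Activators and a repressor of the family were thus higher alike.

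The only AP2/ERF transcript called here among the 6 that had been listed from the 10 dpa arrays was the ethylene responsive element binding factor 1 (AT4G17500). Its levels were 1.58, 1.61 and 1.66 in *Fl* and 0.11, -0.13 and -0.37 in *FL*, a difference of 1.74 (SE 0.12, adjusted p = 1.2e-06). The study's list of transcription factors pairs the same probe set with ERF2 (AT5G47220) instead. The other 5 were not called, with AT3G16770 at -0.01 (SE 0.08) and another probe set paired with ERF2 at -0.18 (SE 0.16). Neither passed the test (adjusted p = 0.97 and 0.49).

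C2H2 zinc finger transcripts, whose *Arabidopsis* counterparts are mostly stress-induced repressors, were higher in 3 of 4 probe sets, all 3 listed from the same arrays. ZAT6 (AT5G04340) read 2.49, 2.77 and 2.94 in *Fl* and 0.12, -0.03 and -0.50 in *FL* (difference 2.87, SE 0.18, adjusted p = 7.7e-07). For STZ (AT1G27730) the 2 probe sets differed. One read -0.08, -0.04 and 0.06 in *Fl* and -1.40, -1.57 and -1.52 in *FL*, a difference of 1.48, and the other had a difference of -0.24 (SE 0.10, adjusted p = 0.12). The higher call of STZ thus rests on a single probe set.

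Among 4 WRKY transcripts, WRKY40 (AT1G80840), a repressor in defence signalling, was higher in *Fl*, with 2.20, 2.30 and 1.82 against -0.24, -0.13 and -0.21 in *FL* (difference 2.30, SE 0.13, adjusted p = 3.6e-07). WRKY70 (AT3G56400), WRKY75 (AT5G13080) and WRKY23 (AT2G47260) had differences of -0.04, -0.10 and -0.15 and were not called. NAC transcripts, all 6 listed from the 10 dpa arrays, included 2 modest increases. AT1G01720 read 0.38, 0.59 and 0.56 in *Fl* and -0.38, -0.41 and -0.49 in *FL* (difference 0.93, SE 0.09, adjusted p = 4.4e-05). AT4G27410, known from responses to drought, was higher by 0.66 (SE 0.13, adjusted p = 0.0049), a call lost without any 1 of 5 of the 6 arrays of 0 dpa (adjusted p of 0.016 to 0.022).

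Of 12 other transcription factor probe sets, 3 were higher and 1 lower, beside 4.95% and 5.25% of all probe sets. All 12 were listed from the 10 dpa arrays alone, and of all probe sets so listed 18.4% were higher and 8.49% lower at 0 dpa. A homeodomain transcript like HB40 (AT4G36740) read -0.24, -0.37 and -0.18 in *Fl* and -0.64, -0.72 and -0.73 in *FL*, a difference of 0.44 (SE 0.07, adjusted p = 0.0015) that covers 1 of its 2 probe sets. Both probe sets of a PLATZ zinc-binding factor (AT4G17900) were higher, by 0.80 and 0.44. The second of these calls was lost with the 0 dpa arrays alone (adjusted p = 0.03). MYB108 (AT3G06490) differed by 0.26 (SE 0.15, adjusted p = 0.26) and the bHLH factor AT3G25710 by -0.00 (SE 0.07). The auxin repressor IAA28 (AT5G25890, a weak sequence match) was lower by 0.50 in *Fl*, with an adjusted p of 0.0084 that became 0.02 with the 0 dpa arrays alone, and its sign turned (0.15) after centring on the hybridization controls.

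**Figure D2:**
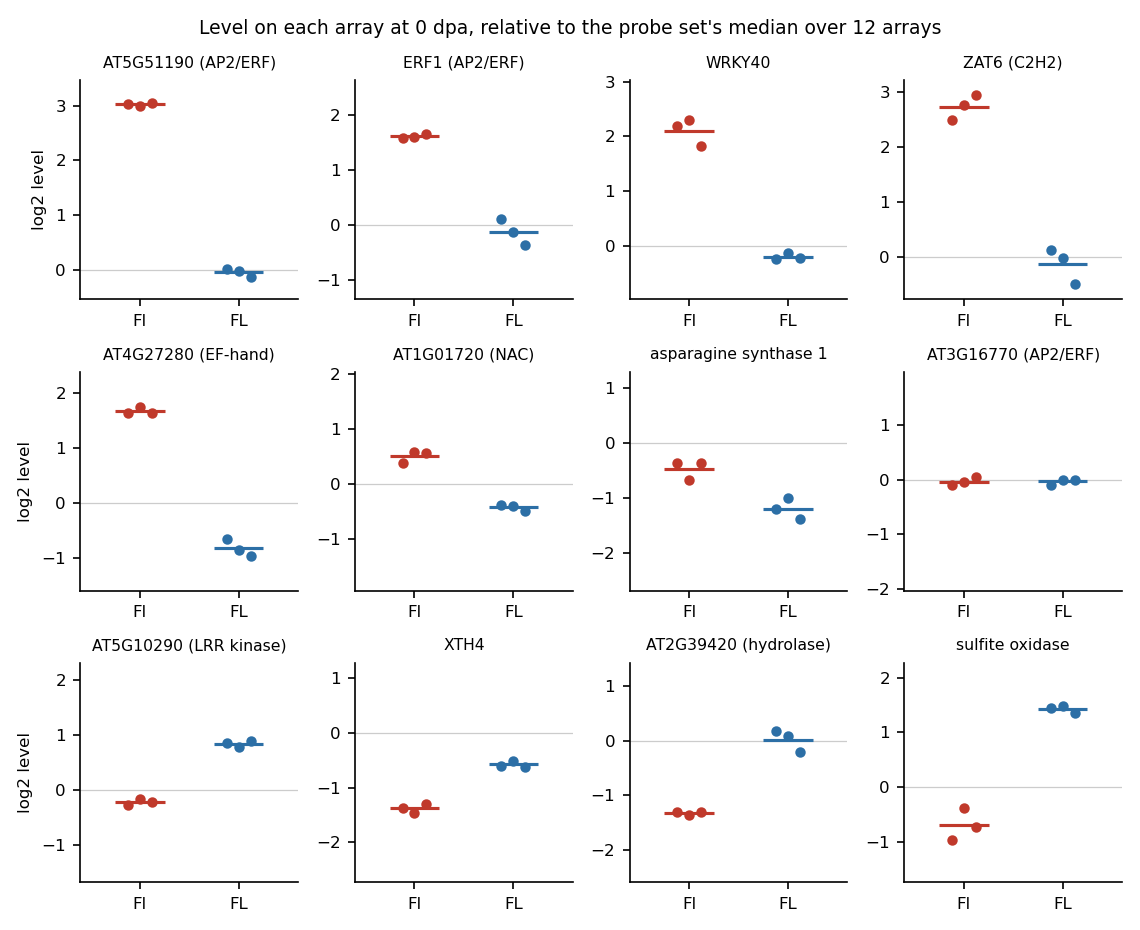
Log2 level of 12 transcripts on each array at 0 dpa relative to the median of the probe set, with *Fl* arrays in red at left, *FL* arrays in blue at right, a bar at each group mean, and vertical axes of equal length but different position. The top row shows differences of 1.74 to 3.06, AT3G16770 in the middle row shows groups that overlap at -0.01, and the bottom row shows transcripts lower in *Fl* by 0.79 to 2.12.

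Some transcripts for ubiquitin ligase components, which mark proteins for breakdown, and for calcium and defence proteins were higher as well. RING and F-box transcripts were higher in 4 of 7 probe sets and lower in none, beside 4.95% and 5.25% of all probe sets. However, 3 of the 4 were listed from the same arrays. The 4 probe sets listed from the 10 dpa arrays alone had a median difference of 0.0352, beside -0.0161 over all probe sets, and 1 was called higher. A RING finger protein (AT5G59550) read 2.84, 2.70 and 2.97 in *Fl* and -0.75, -1.39 and -1.29 in *FL*, a difference of 3.98 (SE 0.14, adjusted p = 4.6e-09). BRH1 (AT3G61460), a RING protein that responds to brassinosteroid, read 1.77, 1.75 and 1.77 in *Fl* and -0.52, -0.69 and -0.71 in *FL*. In both, the *FL* arrays lay below the median of the probe set and the *Fl* arrays above it. An F-box protein listed from the 10 dpa arrays (AT4G21510) was higher by 0.94 (SE 0.11, adjusted p = 0.00011).

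Of 9 calcium and defence probe sets 7 were higher and none lower, beside 4.95% and 5.25% of all probe sets, but 6 of the 7 were listed from the same arrays. The other 3, listed from the 10 dpa arrays alone, had a median of 0.442 with 1 called higher. A calcium-transporting ATPase (AT3G63380), which pumps calcium out of the cytosol, read 1.82, 2.01 and 1.94 in *Fl* and -0.65, -0.89 and -0.95 in *FL* (difference 2.76, SE 0.09, adjusted p = 2.1e-09). A RIN4 family protein (AT5G55850), after a regulator of plant immunity, read 2.45, 2.45 and 2.18 in *Fl* and -0.27, -0.01 and -0.36 in *FL* (difference 2.57, SE 0.15). The calcium-binding EF-hand protein AT4G27280 read 1.64, 1.76 and 1.64 in *Fl* and -0.66, -0.86 and -0.96 in *FL* (difference 2.51, SE 0.10). No array of 1 line reached the range of the other in these 3 transcripts. Defence transcripts did not all move, since PR4 (AT3G04720), a secreted chitin-binding protein, had a difference of -0.11 (SE 0.09, adjusted p = 0.46). Among 8 kinase probe sets none was higher and 1 was lower, counts near the 4.95% and 5.25% called over all probe sets (6 were higher under the hybridization centring). A leucine-rich repeat kinase (AT5G10290) was lower, with -0.27, -0.17 and -0.22 in *Fl* and 0.85, 0.79 and 0.90 in *FL* (difference -1.07, SE 0.09, adjusted p = 6e-06), and MAP kinase 3 (AT3G45640) differed by -0.04 and -0.06 in its 2 probe sets, neither called.

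In ethylene synthesis, the enzymes of successive steps did not differ alike. ACC synthase 6 (AT4G11280), which makes the ethylene precursor ACC, read -0.33, -0.31 and -0.22 in *Fl* and -2.13, -2.17 and -2.39 in *FL*, a difference of 1.94 (SE 0.08, adjusted p = 1.5e-08). All 3 probe sets of the ethylene-forming enzyme AT1G05010, an ACC oxidase, were within 0.12 of zero and none was called. A second oxidase of that type (AT1G12010) was lower by 0.53 in *Fl* (SE 0.08, adjusted p = 0.00056), with -0.25, -0.36 and -0.17 in *Fl* and 0.39, 0.17 and 0.25 in *FL*, though its sign turned (0.12) after centring on the hybridization controls. The ethylene receptor-like AT3G23150 differed by 0.05 (SE 0.08). Among 8 transcripts of other hormones, a dioxygenase (AT1G52820) was higher by 1.60 (SE 0.08) and an abscisic acid receptor component (AT1G01360) by 0.65 (SE 0.10, adjusted p = 0.00095). Allene oxide synthase (AT5G42650, a weak match), which acts in jasmonate synthesis, was lower, at -1.77, -1.80 and -1.83 in *Fl* and 0.18, 0.03 and 0.11 in *FL* (difference -1.90, SE 0.07, adjusted p = 4.1e-09). Gibberellin 3-oxidase 1 (AT1G15550), which makes active gibberellin, was not called (0.27, SE 0.14, adjusted p = 0.23).

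**Figure D3:**
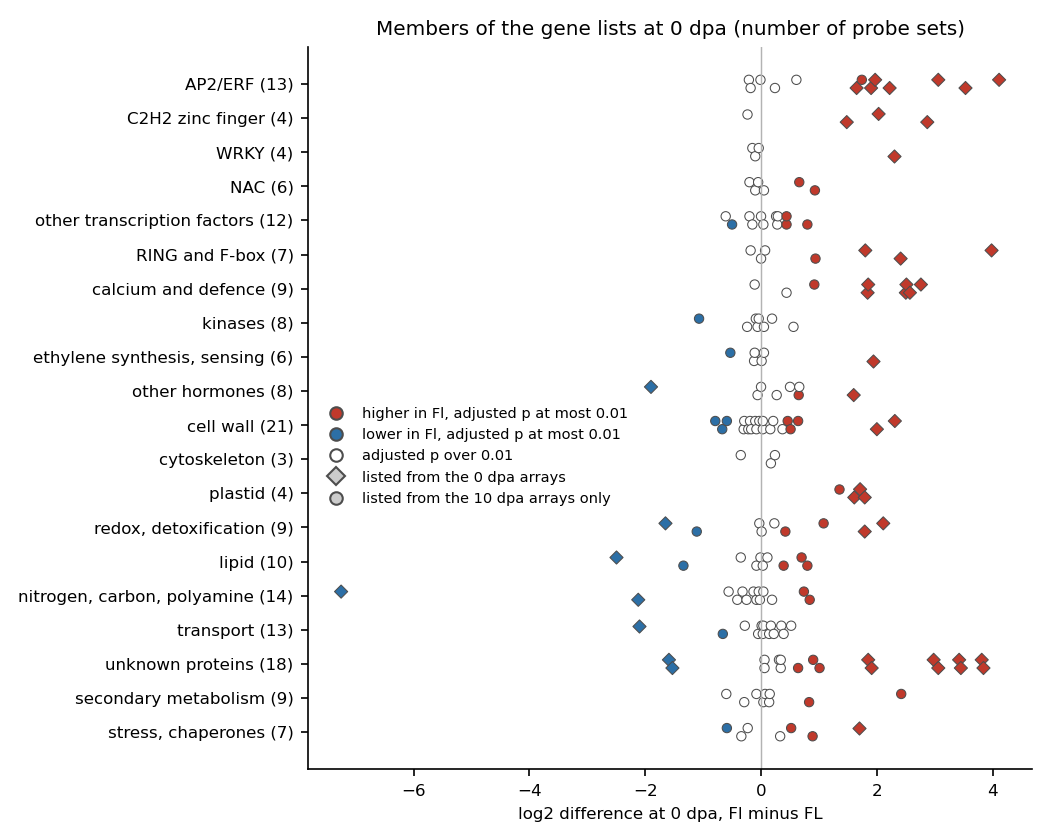
Log2 difference at 0 dpa, *Fl* minus *FL* (horizontal axis), for each probe set of 20 gene lists (rows, number of probe sets in brackets), filled red where called higher in *Fl*, blue where called lower and white where not called. Diamonds were listed from the 0 dpa arrays and circles from the 10 dpa arrays only; all 4 plastid probe sets lie right of 1.3, and spermidine synthase 3 lies alone at -7.25.

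Cell wall transcripts moved in both directions, 5 higher and 3 lower among 21 probe sets, with a median of -0.0263. Of all probe sets 4.95% were higher and 5.25% lower. Of the 19 listed from the 10 dpa arrays alone, 3 were higher and 3 lower, beside 18.4% and 8.49% of all probe sets so listed. Under the hybridization centring 16 of the 21 were higher and none lower. The largest increase was that of a xyloglucan endotransglucosylase/hydrolase (AT5G57560), an enzyme that cuts and rejoins wall xyloglucan. It read -0.11, -0.19 and -0.07 in *Fl* and -2.39, -2.59 and -2.32 in *FL* (difference 2.31, SE 0.08, adjusted p = 2.9e-09). Expansin A1 (AT1G69530), which loosens the wall, read 0.52, 0.54 and 0.33 in *Fl* and -1.47, -1.75 and -1.41 in *FL* (difference 2.00, SE 0.10, adjusted p = 1.5e-07). In both it was the *FL* arrays that lay far from the median of the probe set. Both were listed from the same arrays.

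A relative of the first enzyme, XTH4 (AT2G06850), went the other way, with -1.37, -1.46 and -1.30 in *Fl* and -0.60, -0.51 and -0.63 in *FL* (difference -0.79, SE 0.07, adjusted p = 8.9e-06). It was no longer called when the arrays were centred on the hybridization controls (adjusted p = 0.25). A glycosyl hydrolase (AT2G16730) and beta-galactosidase 2 (AT3G52840), which trim wall galactans, were lower by 0.67 and 0.59. Both of these calls were lost with the 0 dpa arrays alone (adjusted p = 0.016 and 0.041), and under the hybridization centring the first was not called (adjusted p = 0.89) and the second turned sign (0.06). A polygalacturonase-inhibiting protein (AT5G06860) was higher by 0.64 (SE 0.07, adjusted p = 0.00012) and beta-xylosidase 1 (AT5G49360) by 0.46 (SE 0.08, adjusted p = 0.0014). The 2 probe sets of expansin-like B1 (AT4G17030), a relative of the wall-loosening expansins, had differences of -0.08 and -0.17 at 0 dpa, neither called, beside -6.20 and -5.73 at 10 dpa. None of the 3 cytoskeleton transcripts was called (2 were higher under the hybridization centring), with beta-6 tubulin (AT5G12250) at 0.24 (SE 0.11), profilin 5 (AT2G19770) at 0.17 and actin depolymerizing factor 5 (AT2G16700) at -0.35.

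The widest differences were decreases. Spermidine synthase 3 (AT5G53120), an enzyme of polyamine synthesis, read -3.57, -3.80 and -3.55 in *Fl* and 3.55, 3.59 and 3.70 in *FL* (difference -7.25, SE 0.08, adjusted p = 1.9e-13). A transcript with no homolog in the study's lists, picked here after its values were seen, followed at -6.46 (SE 0.17). It read -3.52, -2.82 and -3.45 in *Fl* and 3.37, 3.03 and 3.20 in *FL*. The study gives it a homolog only among its genes for qRT-PCR. A ribonuclease H-like transcript (AT2G04420, a weak match) was lower by 4.61 (SE 0.13, adjusted p = 8.1e-10), and a second probe set of its cluster, without a homolog, fell by 1.71. Sulfite oxidase (AT3G01910), which detoxifies sulfite, read -0.96, -0.38 and -0.72 in *Fl* and 1.45, 1.49 and 1.36 in *FL* (difference -2.12, SE 0.14). Both probe sets of metallothionein 3 (AT3G15353, weak matches), a metal-binding protein, were lower, by 1.65 and 1.11. Each of these transcripts was also lower in *Fl* at 10 dpa.

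Single membrane and lipid transcripts were lower by 2-fold or more. A Sec14p-like phosphatidylinositol transfer protein (AT1G01630) read 0.22, -0.04 and -0.09 in *Fl* and 2.54, 2.43 and 2.64 in *FL* (difference -2.50, SE 0.10, adjusted p = 1.5e-08). A major facilitator transporter (AT5G62680), from a family that carries nitrate, peptides and other small molecules, read -0.31, -0.11 and -0.10 in *Fl* and 2.09, 2.01 and 1.70 in *FL* (difference -2.11, SE 0.10). A hydrolase (AT2G39420) read -1.31, -1.35 and -1.31 in *Fl* and 0.18, 0.08 and -0.21 in *FL* (difference -1.34, SE 0.09, adjusted p = 1.5e-06). The hydrolase had been listed only for its difference at 10 dpa. Of 13 transport probe sets none was higher (10 under the hybridization centring) and 2 were lower, counts not far from the 4.95% and 5.25% over all probe sets. The second was the ABC transporter PDR4 (AT2G26910) at -0.66 (SE 0.09, adjusted p = 0.00029), which was not called after centring on the hybridization controls (adjusted p = 0.96). Of 10 lipid probe sets 3 were higher and 2 lower, beside the same shares of 4.95% and 5.25%. The higher ones were the probe sets of a lipid-transfer protein (AT2G45180), by 0.70 and 0.39, and acyl-CoA oxidase 4 (AT3G51840), by 0.80. Of these 10, 9 were listed from the 10 dpa arrays alone, and of all probe sets so listed 18.4% were higher and 8.49% lower.

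In redox and secondary metabolism the called transcripts other than metallothionein were higher. Glutathione S-transferase phi 12 (AT5G17220), which acts in carrying anthocyanins to the vacuole, read 2.65, 2.43 and 2.72 in *Fl* and 0.55, 0.54 and 0.38 in *FL* (difference 2.11, SE 0.19, adjusted p = 1.5e-05). Glutathione S-transferase TAU 8 (AT3G09270) read 1.05, 1.04 and 1.08 in *Fl* and -0.61, -0.76 and -0.82 in *FL* (difference 1.79, SE 0.10). Terpene synthase 21 (AT5G23960), a sesquiterpene synthase, read 1.90, 2.22 and 2.08 in *Fl* and -0.10, -0.71 and -0.25 in *FL* (difference 2.42, SE 0.15, adjusted p = 6.7e-07), although it had been listed only for its opposite difference at 10 dpa. Peroxidase 2 (AT5G06720), by contrast, had differences of 0.23 and -0.03 in its 2 probe sets, neither called. In carbon and nitrogen metabolism a trehalose-phosphate synthase (AT1G23870) was higher by 0.84 (SE 0.09, adjusted p = 5.2e-05), and glutamine-dependent asparagine synthase 1 (AT3G47340) was called in 1 of 5 probe sets.

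Of 18 transcripts for proteins of unknown function, 11 were higher and 2 lower, and 10 of these were listed from the same arrays. AT4G29780 read 3.88, 3.69 and 3.77 in *Fl* and -0.02, -0.20 and 0.02 in *FL* on the first of its probe sets (difference 3.84, SE 0.11, adjusted p = 8.1e-10), and differed by 3.81 on the second. Another probe set of the same cluster differed by 0.283 and was not called (adjusted p = 0.346). AT5G12010 differed by 3.45 and 3.06 on its 2 probe sets. AT5G17350 read 1.69, 1.62 and 1.65 in *Fl* and -1.69, -1.96 and -1.66 in *FL* (difference 3.42, SE 0.08, adjusted p = 3.3e-10). A ROTUNDIFOLIA-like peptide (AT4G13395, a weak match), of a family that limits organ length, read 4.19, 4.18 and 3.89 in *Fl* and 0.37, -0.07 and 0.89 in *FL* (difference 3.69, SE 0.21, adjusted p = 3.3e-07). Its *FL* arrays were spread more widely than those of the other transcripts in this group.

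All 4 plastid probe sets were higher in *Fl*, 3 of them listed from the same arrays. The Rubisco small chain (AT5G38430), which fixes carbon dioxide, read 1.65, 1.66 and 1.71 in *Fl* and -0.01, -0.17 and -0.17 in *FL* (difference 1.79, SE 0.08, adjusted p = 4.6e-08). The light-harvesting protein AT2G34430 was higher by 1.61 (SE 0.08). Both are nuclear genes, and both were lower in *Fl* at 10 dpa, by 1.11 and 1.50. The other 2 are encoded in the plastid genome and were higher at both stages. The cytochrome b6 transcript ATCG00720 read 1.07, 1.14 and 1.35 in *Fl* and -0.42, -0.50 and -0.65 in *FL* (difference 1.71, SE 0.21, adjusted p = 0.00023; 1.54 at 10 dpa), and the ATP synthase beta subunit ATCG00480 was higher by 1.34 (SE 0.21; 2.09 at 10 dpa).

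Ribosomal RNA probe sets, whose targets normally lack the poly-A tail that the labelling primes on, moved beside these. Of the 4 on the array, 1 was higher by 1.69 (SE 0.33, adjusted p = 0.0042) and counts among the 69 DETs, with 1.43, 1.17 and 1.50 in *Fl* and -0.05, 0.05 and -0.96 in *FL*. A second was higher by 1.10 (adjusted p = 0.00092), another was lower by 0.49 (adjusted p = 0.0024) and the last differed by 0.25 without a call. The first 2 were also higher at 10 dpa, by 1.42 and 1.22. DETs of either direction with a wide standard error, 0.2 or more, numbered 10, and 7 of these were called higher at 10 dpa too, against 3 of the 60 higher DETs with a smaller error. Whether rRNA or the control measures had a part in the plastid differences was not tested.

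**Figure D4:**
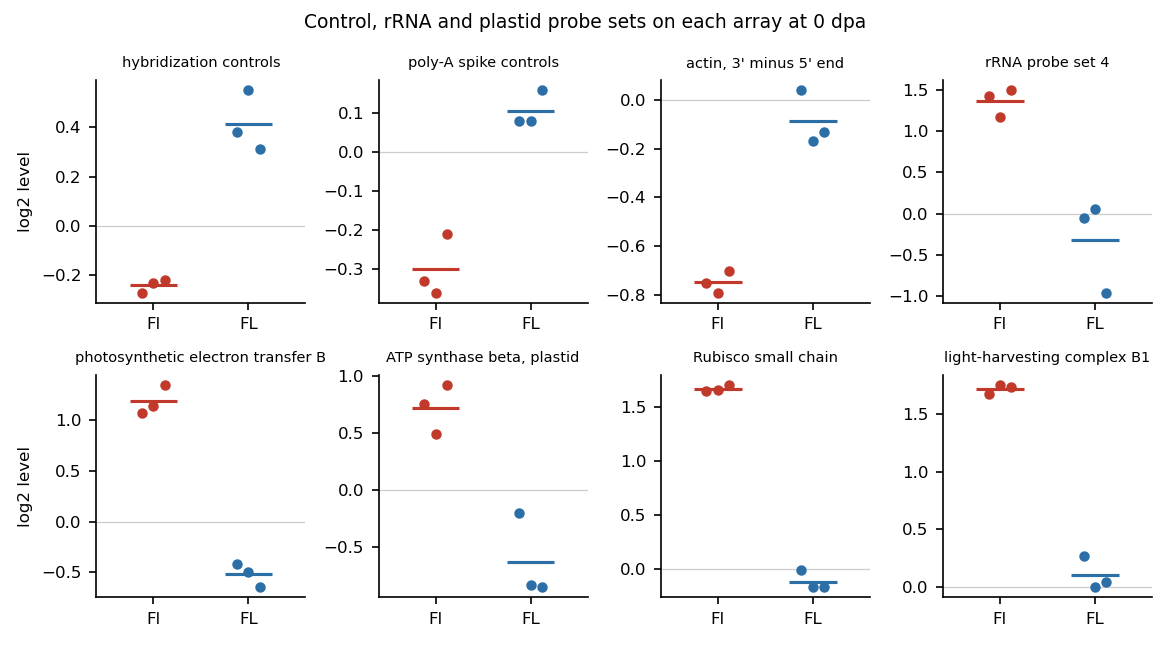
Log2 level on each array at 0 dpa of 2 sets of control probe sets, the actin 3′ minus 5′ difference, an rRNA probe set and 4 plastid probe sets, with *Fl* in red at left, *FL* in blue at right, bars at group means, and a vertical axis that differs between panels. The controls and the actin difference lie lower in *Fl* and the rRNA and plastid probe sets higher, with no overlap between the lines in any panel.

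Set against all 4 groups of the series, the transcripts called at 0 dpa took several forms. They were chosen for the difference between the lines at 0 dpa, which favours the groups of 0 dpa as the highest or lowest. The share of all probe sets with each form was not counted. Of the 69 higher DETs, *Fl* at 0 dpa had the highest mean of the 4 groups in 60, and in 55 its 3 arrays all lay above the other 9. Their median level was 1.83 in *Fl* and -0.214 in *FL* at 0 dpa, and -0.297 in *Fl* and 0.0358 in *FL* at 10 dpa. AT1G19210, WRKY40, ZAT6 and the RIN4 family transcript had this form. In 25 of the 69, *FL* at 0 dpa had the lowest mean of the 4 groups, and in 16 its 3 arrays lay below all others. ACC synthase 6, expansin A1 and the hydrolase/transglucosylase AT5G57560 had this second form, which the first does not exclude.

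**Figure D5:**
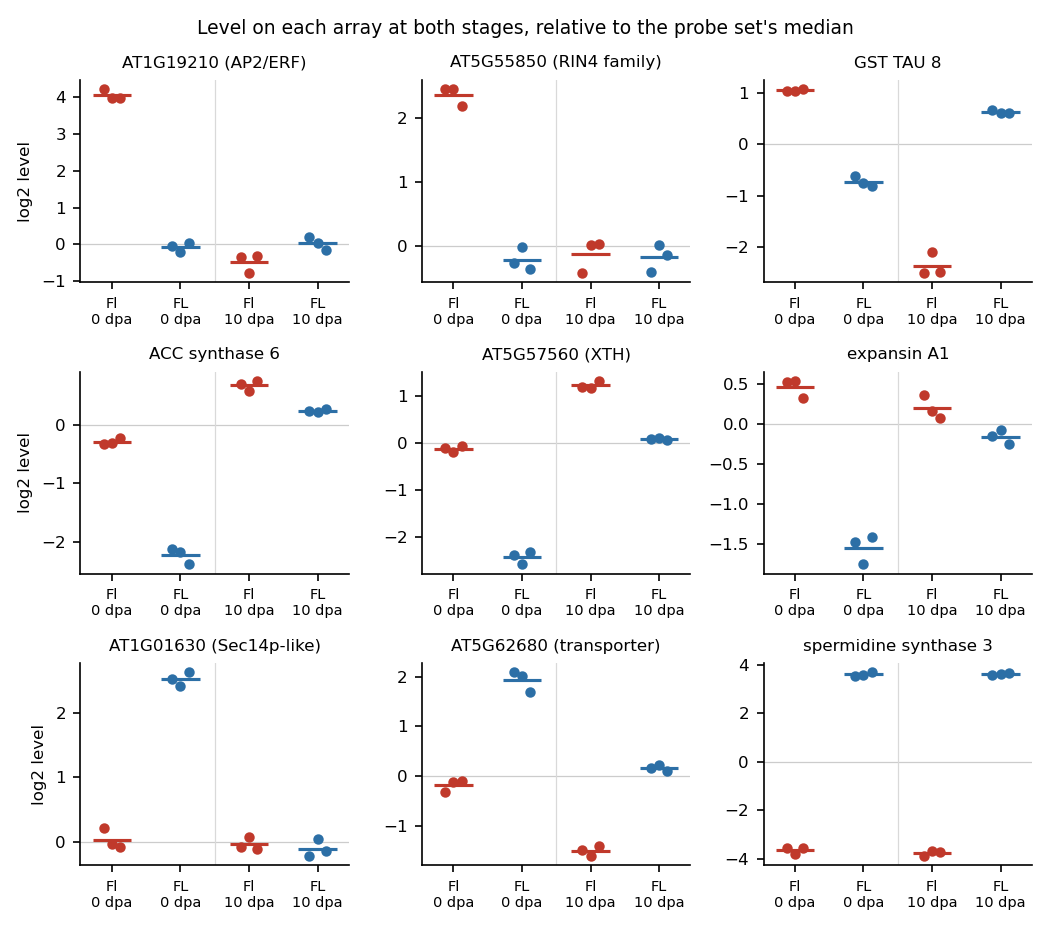
Log2 level of 9 transcripts on each array relative to the median of the probe set, with *Fl* (red) left of *FL* (blue) at 0 dpa and again at 10 dpa, bars at group means, and a vertical axis that differs between panels. In AT1G19210 and the RIN4 family transcript the *Fl* arrays of 0 dpa stand above the other 9, in the middle row the *FL* arrays of 0 dpa stand below the other 9, and spermidine synthase 3 (last panel) separates the lines at both stages.

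Among the 14 lower DETs, *FL* at 0 dpa had the highest mean in 10, with its 3 arrays above the other 9 in each of those 10. *Fl* at 0 dpa had the lowest mean in 7, and its arrays lay below all others in 3. The Sec14p-like transcript was high only in *FL* at 0 dpa, and its difference at 10 dpa was 0.07 (adjusted p = 0.65). Among the smaller differences, *Fl* at 0 dpa was the highest group in 603 of the 1009 higher transcripts and the lowest in 614 of the 1130 lower ones. The choice of transcripts by their difference at 0 dpa favours these counts too.

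The differences at 0 dpa were set beside those at 10 dpa, which come from other arrays of the same lines in the same fit. At 10 dpa 1993 probe sets were called higher in *Fl* (9.15%) and 2115 lower (9.71%). The same call at both stages was given to 646 transcripts, 29.1% of the calls at 0 dpa and 15.7% of those at 10 dpa, and opposite calls to 305. Each of the 305 also passed the test of the interaction, the difference at 0 dpa minus that at 10 dpa. Opposite calls in the same fit make that outcome all but certain, so it adds no support. These counts depended on single arrays, since without *Fl* replicate 1 they were 377 and 189, without *Fl* replicate 2 428 and 196, without *Fl* replicate 3 420 and 213, and without *FL* replicate 2 418 and 212.

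The later differences of the DETs were as follows. Of the 69 higher DETs, 10 were called higher at 10 dpa, 34 lower and 25 not called, with a median of -0.367. Of the 14 lower DETs, 12 were called lower again and 2 were not called, with a median of -1.4. Among the smaller differences, 297 of the 1009 higher transcripts were higher again and 187 were lower, and 327 of the 1130 lower transcripts were lower again and 84 were higher. GST TAU 8, higher by 1.79 at 0 dpa, was lower by 3.01 at 10 dpa, and the Hs1pro-1 homolog AT3G55840 was higher by 1.84 and then lower by 2.62.

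The 212 transcripts listed only from the 10 dpa arrays had not been listed for a difference at 0 dpa. They are not an unselected view of 0 dpa, because transcripts listed at both stages were left out of them. Of the 197 that were lower in *Fl* at 10 dpa, 34 were higher at 0 dpa (17.3%), 18 lower (9.14%) and 145 not called, with a median difference of 0.0255. Both shares stood above the 4.95% and 5.25% over all probe sets. The members had passed a test at 10 dpa, however, and the fit uses the same spread of a probe set at both stages. The shares of members and of all probe sets are therefore not strictly comparable. Of the 15 that were higher at 10 dpa, 5 were higher at 0 dpa and none lower. The called members included 10 increases and 3 decreases of 2-fold or more.

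Probe sets that share a homolog or a design cluster did not always move alike. The 3 probe sets of AT1G19210 differed by 4.11, 3.53 and 1.97, and the 2 of ERF5 by 2.22 and 1.65. The 5 of asparagine synthase 1 ran over 0.74, 0.19, -0.04, -0.13 and -0.32, and the 2 of senescence-associated gene 21 (AT4G02380) over 0.52 and -0.34. Of the 83 DETs, 29 had other probe sets from the same cluster, 88 pairs in all, of which 18 had the same call, 6 the opposite call and 64 no call for the partner. A single cluster gave a large part of these pairs, because its probe sets were counted against each of its DETs. Most of the opposite calls and most of the pairs without a call came from it, so the count of opposite calls does not describe clusters in general. Partners without a call were also common in other clusters. They included a partner of AT1G19210 (0.279, adjusted p = 0.203) and a partner of the calcium-transporting ATPase (0.0506, adjusted p = 0.825). Both partners of sulfite oxidase (0.0753 and -0.117, adjusted p = 0.823 and 0.327) were not called either. Of the 29 DETs with partners, 16 had a partner called the same way. The single cluster held both a DET higher by 3.04 (SE 0.51, adjusted p = 0.0015) and a DET lower by 1.93 (SE 0.25, adjusted p = 0.0003). Neither of them had a homolog. In the first the *Fl* arrays read 2.72, 1.87 and 3.26 and the *FL* arrays -0.10, -0.11 and -1.06, the widest spread among the transcripts given here.

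Most of the called transcripts carry no name in the study's lists. Of 2222 calls 97 had a homolog and 2125 had none, and of the 69 higher and 14 lower DETs 27 and 6 had none. The probe sets were designed on sequences of several cotton species. The share called was 13.2% of 9414 and 11% of 6166 probe sets in the 2 *G. hirsutum* classes and 5.53% of 2949 and 3.97% of 3122 in the 2 *G. raimondii* classes. Probe sets whose probes can match several transcripts of a family (suffix s) were called in 13.1% of cases and those with probes unique to their target in 8.06%. The RNA hybridized was from *G. arboreum*, and how well it binds the probes of each class was not tested.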

How the data were processed

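Total RNA of ovules was labelled as biotinylated cRNA (3′ IVT kit) and hybridized to the Affymetrix cotton array, 1 array per biological replicate. The authors summarised the probes by RMA in GeneSpring GX and deposited log2 values. The values deposited had been shifted so that each probe set's median is 0, a step named in none of the sources used here. The shift leaves differences between groups as they were and removes absolute brightness. The authors called transcripts by an unpaired t-test at 0.01 after FDR correction and 3-fold, thresholds that were kept. Of 21889 probe sets in the file, 98 controls (prefix AFFX) were left out and 21791 tested. No gene names come with the values, so names were taken from the study's lists of transcripts.

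The 12 arrays were fitted in limma 3.58.1 (R 4.3.3) with a mean for each line and stage and empirical Bayes variances (8 residual and 3.63 prior degrees of freedom), and p-values were adjusted by Benjamini-Hochberg over 21791 probe sets. The contrasts were *Fl* minus *FL* at 0 dpa, the same at 10 dpa and their interaction. The median standard error at 0 dpa was 0.0965 (0.0489 to 0.507), and the number of arrays limits the precision. The script was tested on simulated data. Gene lists were made by family and function from the study's lists. A rule chose 107 probe sets for naming. From each list it took up to 3 called transcripts with the largest difference in each direction and 1 or 2 with the smallest difference. Over all probe sets with a name it took the 10 highest and 10 lowest, and over unnamed ones the 2 highest and 2 lowest. These 107 count as named in the counts below, but the text does not give each of them. Further members were named after their values were seen. The comparison, the lists and the tests were chosen with earlier results of these data known. The alternatives were the 0 dpa arrays alone, repeated quantile normalization, centring on array medians or on the hybridization controls, the methods' t-test, only probe sets with an SD above the median SD, a replicate block, and leaving out each array.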

Additional observations from a re-analysis of the deposited data

Results flagged for a closer look

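The difference between *Fl* and *FL* itself differed between 0 and 10 dpa in many transcripts, by the interaction term of the limma fit (adjusted p at most 0.01, 3 arrays for each line and stage). In 305 probe sets the lines differed in opposite directions at the 2 stages. For these the interaction test adds no support, since opposite calls in the same fit all but fix its outcome. Among the named transcripts, the difference at 0 dpa minus that at 10 dpa is given below on the log2 scale, and in each probe set given *Fl* was the higher line at 0 dpa and the lower one at 10 dpa.

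Of transcription factors, it was 4.22 for AT5G51190 and 4.04 for a probe set of AT1G19210, 3.45 for AT1G01720 and 3.17 for AT4G27410 in the NAC family, 3.41 for a probe set of STZ (AT1G27730), 3.30 and 2.49 for the PLATZ factor AT4G17900, and 2.10 for a probe set of HB40 (AT4G36740). Of signalling and defence transcripts, it was 4.62 for the RING protein AT5G59550, 3.68 for the EF-hand protein AT4G27280, 3.13 for the calcium ATPase AT3G63380, 3.02 for the dioxygenase AT1G52820 and 2.74 for the abscisic acid receptor component AT1G01360. Of transcripts for unknown proteins, it was 5.09 and 4.39 for the 2 probe sets of AT4G29780, 4.14 for AT5G17350 and 3.53 for a probe set of AT5G12010.

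Of metabolic and wall transcripts, it was 4.80 for GST TAU 8, 2.94 for GST phi 12, 4.14 for a probe set of the peroxidase AT5G05340, 4.18 for 1 of 5 probe sets of asparagine synthase 1 (AT3G47340), 4.12 for terpene synthase 21, 2.73 for the cytochrome P450 AT4G12320, 2.77 for the trehalose-phosphate synthase AT1G23870, 2.51 for acyl-CoA oxidase 4 (AT3G51840) and 2.78 for the polygalacturonase-inhibiting protein AT5G06860. Of stress and plastid transcripts, it was 4.74 and 2.04 for the 2 probe sets of the DnaJ-domain protein AT2G17880, 4.52 for 1 of 2 probe sets of senescence-associated gene 21 (AT4G02380), 3.11 for the light-harvesting protein AT2G34430 and 2.90 for the Rubisco small chain (AT5G38430). At 0 dpa the other probe sets of STZ (-0.24), senescence-associated gene 21 (AT4G02380, -0.34), asparagine synthase 1 (AT3G47340, -0.32 to 0.19) and HB40 (AT4G36740, 0.28) were not called.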

How the results depend on the processing

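Among DETs of 3-fold or more, leaving out each array in turn gave 66 to 75 higher and 13 to 15 lower. Quantile normalization gave 28 lower, and centring on the hybridization controls 192 higher and 4 lower. At any fold, the 0 dpa arrays alone gave 683 higher and 584 lower, the methods' t-test 189 and 144, centring on the hybridization controls 19278 and 45, and leaving out an array 631 to 914 higher and 578 to 956 lower. The same call at both stages was given to 2392 transcripts and opposite calls to 751 under the hybridization centring, and to 377 to 535 and 189 to 271 without single arrays. Members of the gene lists, 65 higher and 18 lower, numbered 153 and 11 under that centring and 37 and 9 by the t-test. The cause of these changes was not tested, except that the centring subtracts the difference of the controls (-0.65, *Fl* minus *FL*) from every difference.

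That centring turned 20 of the 107 named differences positive: 0.65 for AT3G25710 and AT3G16770, 0.64 for AT2G44970, 0.63 for AT4G33150 and XTH32 (AT2G36870), 0.62 for MAP kinase 3 and peroxidase 2, 0.61 for a probe set of asparagine synthase 1, WRKY70 and NAC83 (AT5G13180), 0.60 for AT4G00880, 0.56 for WRKY75, 0.54 for PR4, 0.47 for ERF2 (called in neither setting), 0.43 for AT1G70830, 0.41 for the second probe set of STZ, 0.15 for IAA28, 0.12 for AT1G12010, and 0.06 for HSP20-like AT2G29500 and beta-galactosidase 2. No other alternative turned the sign of a named transcript that was called.

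Same-numbered replicates of the lines deviated together with correlations across probe sets of -0.00803, -0.0496 and -0.203 at 0 dpa and 0.0154, -0.00118 and 0.0794 at 10 dpa, so the numbers were not taken to pair the arrays. With the replicate block 66 DETs were higher and 14 lower, 589 transcripts were higher and 530 lower at any fold, 301 had the same call at both stages and 166 opposite calls. Of the 70 named and called transcripts, 62 were kept without each array in turn and 38 under all alternatives but the hybridization centring. Without absolute brightness, transcripts near background could not be told from others, and small differences near the median SE of 0.0965 lay at the limit of 3 arrays per line.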
